A study of Mus musculus with 23 samples.

Results

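The quadriceps of mice that carried a KPC IL6KO pancreatic tumor was compared with the quadriceps of mice without a tumor, gene by gene. The members were the 4 KPC IL6KO libraries and the 3 no tumor libraries of the quadriceps table, chosen by their labels, which made 7 of the 23 samples of the series, and each library came from 1 mouse. All hosts were male C57BL/6J mice aged 8 weeks at surgery. No tumor mice had sham surgery. KPC IL6KO mice received tumor cells injected into the pancreas, and those cells were 1 clone of a line isolated from a pancreatic tumor of a mouse whose alleles included LSL-Trp53R172H and Pdx1-Cre, in which Il6, the gene of interleukin-6, had been edited with CRISPR/Cas9. The host mice were not edited, so their own cells could still make interleukin-6. All mice were killed together when the mice with the unedited KPC tumor wasted overtly. A further group of 4 quadriceps libraries from those KPC mice shared the fit and is cited beside single genes. The comparison asks which muscle genes differed between mice with a tumor that lacked its own interleukin-6 and mice with none.

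Interleukin-6 signals through its receptor, the shared transducer gp130 and the transcription factor STAT3, and it is a known mediator of muscle wasting in cancer. Wasting muscle raises a program of ubiquitin ligases, proteasome subunits and autophagy genes that breaks down its own protein. Limb muscle also holds fat cells, nerve, tendon, vessels and blood between its fibers, so bulk RNA of a quadriceps reads all of them. Fatty acid synthesis from citrate, which Acly, Acaca and Fasn carry out, runs mainly in fat cells and liver and at a lower rate in muscle fibers.

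The response was small. Among 12831 genes, the quasi-likelihood test of edgeR called 0 (0% of genes) at a Benjamini-Hochberg adjusted p (FDR) of at most 0.05 and a fold change of at least 1.5, and the smallest FDR was 0.0753. At an unadjusted p under 0.05 this test held 281 genes as higher (2.19% of all genes) and 606 as lower (4.72%). The likelihood ratio test of edgeR, which allows less for uncertainty in each gene's spread, called 25 genes up (0.195%) and 70 down (0.546%). DESeq2 called 30 up (0.244%) and 66 down (0.537%). Both of the latter tests shared 23 genes called up and 57 called down. In what follows, "rose" and "fell" are used of genes called by the likelihood ratio test at an FDR of at most 0.05, printed for a part of them, and none of these genes passed the quasi-likelihood test with all libraries. Of the 70 genes called down 16 were members of the gene lists examined, and 12 of these belonged to fatty acid synthesis, triglyceride storage or adipocyte markers. Of the 25 called up 5 were list members. For scale, the 49 lists held 822 of the 12831 genes. The lists of fatty acid synthesis, triglyceride storage and adipocyte markers had 20, 16 and 16 genes in the table. The rises held the atrophy ligase Fbxo32, cytokine receptors and neutrophil and vessel genes.

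**Figure D1:**
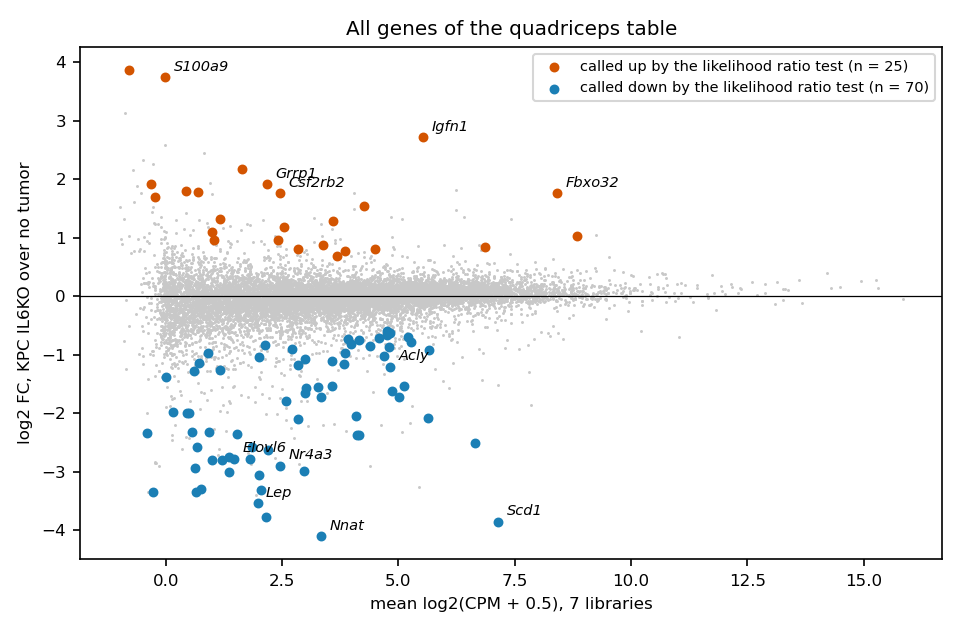
Each point is a gene of the quadriceps table, with the mean of log2(CPM + 0.5) over 7 libraries on the x axis (CPM, counts scaled to an equal library size) and the log2 fold change of KPC IL6KO over no tumor on the y axis. Orange points are the 25 genes called up and blue points the 70 called down by the likelihood ratio test, and most of the 12831 genes lie close to 0.

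Library no tumor 2 stood apart and bears on most of the falls. It had the highest value of the 7 libraries in 64 of the 70 genes called down, and in 598 of all 1028 genes that were lower without overlap. Its adipocyte markers had the highest summed level and its slow fiber gene Myh7, the slow myosin heavy chain, was at 2.02 CPM against 64.2 and 96.9 CPM in the other no tumor libraries. Without no tumor 2 the likelihood ratio test called 5 genes up and 5 down. All 70 genes called down with the full set were still lower without it, 69 of them at an unadjusted quasi-likelihood p under 0.05, and their median log2 fold change moved from -1.76 to -1.21. The 25 genes called up had a median of 1.32 with it and 1.35 without it, and all 25 were still higher. Among these, KPC IL6KO 3 was the highest of the 7 libraries in 16, and 10 of the 25 kept their call without it. Library no tumor 3 held the fewest counts, and the calls without it were 15 up and 137 down. Total counts per library ranged from 19259763 to 62832136, so that 3 counts were worth 0.0472 to 0.154 CPM. The muscle label held in all 7 libraries, with Ckm, muscle creatine kinase, at 25766 CPM or more and Myh4, the fast myosin heavy chain, at 50575 CPM or more.

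**Figure D2:**
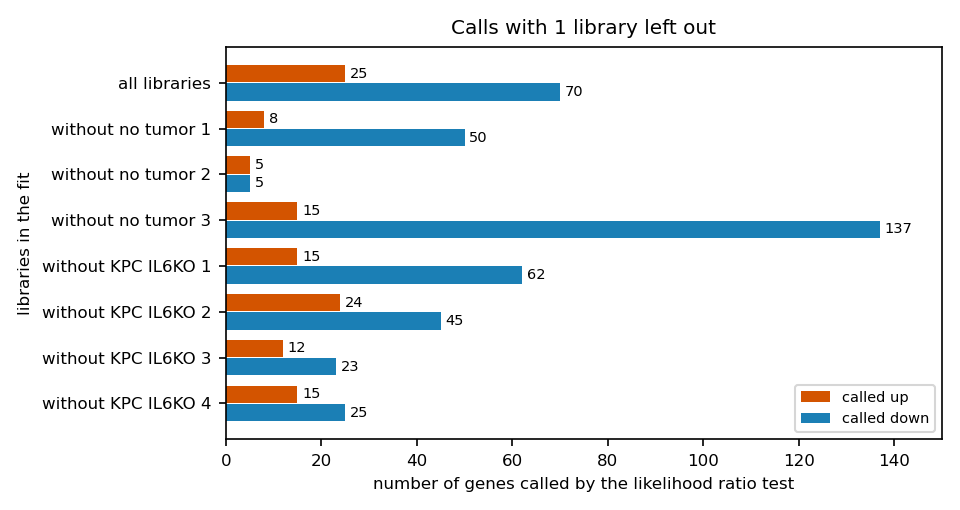
The bars give the number of genes called up (orange) and down (blue) by the likelihood ratio test, with all libraries and with each named library left out. Calls were fewest without no tumor 2 (5 up and 5 down), and calls down were most numerous without no tumor 3 (137).

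Called in the likelihood ratio fit with all libraries and in all 7 fits that left 1 library out were 6 genes: Grrp1, Csf2rb2 and S100a9 up, and Acly, Elovl6 and Nr4a3 down. With KPC IL6KO 1 left out, the quasi-likelihood test called 2 genes, Acly and Elovl6, both down. These are described within their groups.

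Fatty acid synthesis genes gave the most calls of the 49 gene lists examined. Of the 20 genes of this list, all of them in the table, 8 fell and 0 rose, and 17 were lower and 3 higher. Without overlap, 12 were lower and 2 higher. The median log2 fold change was -0.77, against 0.00 over all genes. Groups without overlap occurred in 8.01% of all genes in the lower direction and in 7.54% in the higher. With no tumor 2 left out, 2 of the 8 kept their call and the list median was -0.52. In the 250 bases before their annotated starts, the 3 genes of the list with the smallest p are printed, to let the promoters of genes that moved together be read side by side. They were taken from RefSeq on GRCm38.p6, and capitals mark matches to the searched motifs on either strand.

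Acly (chr11:100528001-100528250, minus strand): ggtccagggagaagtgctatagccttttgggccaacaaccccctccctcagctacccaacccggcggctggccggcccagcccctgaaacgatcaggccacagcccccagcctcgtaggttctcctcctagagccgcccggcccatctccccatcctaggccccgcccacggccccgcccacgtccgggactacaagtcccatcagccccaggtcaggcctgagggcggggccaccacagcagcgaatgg
Elovl6 (chr3:129532136-129532385, plus strand): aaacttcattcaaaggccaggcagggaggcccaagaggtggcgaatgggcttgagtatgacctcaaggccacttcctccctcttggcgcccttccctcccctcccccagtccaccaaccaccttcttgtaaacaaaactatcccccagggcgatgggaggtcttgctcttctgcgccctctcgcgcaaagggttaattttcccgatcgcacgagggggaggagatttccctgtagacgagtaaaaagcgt
Thrsp (chr7:97417551-97417800, minus strand): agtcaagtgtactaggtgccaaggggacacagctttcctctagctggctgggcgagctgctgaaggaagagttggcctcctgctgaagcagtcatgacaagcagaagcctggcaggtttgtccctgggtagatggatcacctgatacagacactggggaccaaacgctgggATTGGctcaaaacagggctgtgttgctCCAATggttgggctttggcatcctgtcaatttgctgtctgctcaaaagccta

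The motifs searched were TCACNCCAC, a form of the sterol regulatory element bound by SREBP, the CCAAT box and the E-box CACGTG, and none of the 3 overlapped another. Of the 8 genes that fell, 7 had a window in the table, 0 of them held TCACNCCAC or CACGTG, and 3 (Thrsp, Pnpla3 and Fasn) held CCAAT. The windows of Acaca and Fasn lie inside the span that RefSeq gives for the gene, and that of Pnpla3 overlaps it, so these 3 do not precede the outermost start. Among 10190 genes of the count table with a window, 1.31% held TCACNCCAC, 39.8% held CCAAT and 10.04% held CACGTG. A match is a description of letters in this window and no evidence of binding.

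Acly (chr11:100476352-100528000) encodes ATP citrate lyase, which makes cytosolic acetyl-CoA. Its values were 46.4, 54.1 and 36.2 CPM in no tumor 1 to 3 and 27.7, 16.7, 17.7 and 17.0 CPM in KPC IL6KO 1 to 4. The groups did not overlap, and KPC IL6KO 1 was the highest of its group. The means were 45.6 ± 8.95 CPM (SD, n = 3) and 19.8 ± 5.32 CPM (SD, n = 4), a 2.31-fold lower level, with a log2 fold change of -1.21 ± 0.19 (SE). Its FDR was 3.58e-05 by the likelihood ratio test and 0.162 by the quasi-likelihood test.

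Elovl6 extends palmitate to stearate, and it stood at 7.05, 8.01 and 4.92 CPM without a tumor. In KPC IL6KO 1 it was 2.15 CPM and in the other 3 libraries 0.631, 0.535 and 0.617 CPM. All 4 lay below every no tumor library, and Elovl6 fell by 2.78 on the log2 scale (likelihood ratio FDR 0.000102), or by 2.62 without no tumor 2. Scd1, the desaturase that makes oleate from stearate, had the steepest fall of the list. It was at 541, 1107 and 472 CPM in the no tumor libraries and at 91.7, 34.1, 36 and 33.5 CPM in the KPC IL6KO libraries, 14.5-fold lower. Its log2 fold change was -3.86 ± 0.88 (SE), with a likelihood ratio FDR of 0.00261 that became 0.0954 without no tumor 2.

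Acaca encodes acetyl-CoA carboxylase 1, which makes the malonyl-CoA that fatty acid synthase consumes. It went from 51.3, 80.8 and 35.7 CPM to 25.2, 13.1, 16.8 and 17.7 CPM and fell by 1.62 on the log2 scale. Fasn, fatty acid synthase, was at 315, 462 and 189 CPM against 134, 25.6, 22.7 and 45.1 CPM. It fell by 2.50 (likelihood ratio FDR 0.0239), while its DESeq2 FDR was 0.121. Both genes kept their groups apart, with no tumor 2 highest and KPC IL6KO 1 highest among the tumor libraries. Thrsp, a lipogenic regulator, fell by 1.54, Pnpla3, a lipid droplet acyltransferase and lipase, by 1.65 and Tkt, transketolase of the pentose phosphate pathway, by 1.72. Slc25a1, the citrate carrier that feeds this path, had a log2 fold change of -2.18 and was not called (likelihood ratio FDR 0.0806).

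**Figure D3:**
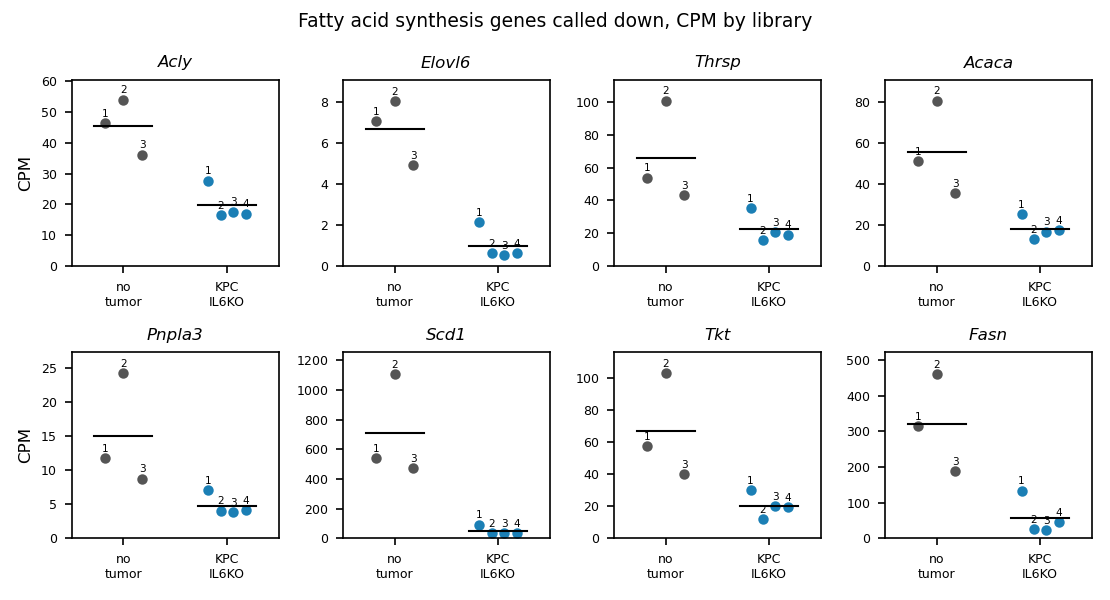
CPM (linear axis from 0) of the 8 fatty acid synthesis genes that fell, in the 3 no tumor libraries (grey) and the 4 KPC IL6KO libraries (blue), with the library number above each point and the group mean as a bar. In each panel every blue point is below every grey point, no tumor 2 is the highest and KPC IL6KO 1 is the highest of the blue points.

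The list did not move as 1 block. Acacb, the carboxylase isoform at the mitochondrial surface that restrains fatty acid oxidation, was at 396 to 424 CPM without a tumor and at 470 to 702 CPM with one. The groups did not overlap, but its log2 fold change of 0.40 did not pass (unadjusted p = 0.0268, quasi-likelihood test). Srebf1, which encodes the SREBP-1 factor that drives lipogenic genes, differed by -0.15 ± 0.29 (SE) with overlapping groups. Mlxipl, the glucose-sensing factor ChREBP, differed by -0.14 and the malic enzyme Me1 by 0.14. Among 23 cholesterol synthesis genes 0 were called and the median was -0.20, or -0.08 without no tumor 1.

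Fat cell markers were lower along with these genes. Of 16 adipocyte markers, 15 were lower, 2 fell and the median log2 fold change was -1.80, or -1.07 without no tumor 2. Their summed level was 2835 to 5702 CPM in the no tumor libraries and 1691 to 3413 CPM in the KPC IL6KO libraries, and 0 of the 16 were at 0 in all libraries. The member that was not lower was Car3, the most abundant of the 16, which makes up much of these sums. It was at 604, 1655 and 1315 CPM without a tumor and at 1627, 470, 1897 and 1121 CPM with one. Its groups overlapped, at a log2 fold change of 0.10 (unadjusted p = 0.830, quasi-likelihood test). Adipoq, the fat cell hormone adiponectin, was at 70.3, 197 and 35.8 CPM without a tumor and at 35.3, 6.05, 21.6 and 18.3 CPM with one. Plin1, the coat protein of fat cell droplets, was at 49.5, 164 and 24.4 CPM against 18.3, 3.73, 11.4 and 8.97 CPM. Neither passed (likelihood ratio FDR 0.48 and 0.219), although both groups stayed apart. Cebpa, a master factor of fat cells, fell by 2.38 and Lep, the hormone leptin, by 3.54 on the log2 scale. Fewer fat cells in the sampled piece and less RNA per fat cell cannot be told apart in bulk tissue, and the part that fat cells play in the fall of the synthesis genes was not tested.

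Genes that store triglyceride followed the same libraries. Of 16 measured, 2 fell and 13 were lower, with a median of -0.85 that became -0.35 without no tumor 2. Agpat2, which acylates lysophosphatidic acid, was at 32.1, 73.3 and 16.5 CPM against 14.6, 7.12, 10.8 and 7.00 CPM and fell by 2.04. Cidea, a droplet protein of fat cells, fell by 3.06. Gpam, the first enzyme of the glycerolipid path, was level at 0.01, and Lpin1, the phosphatidate phosphatase of muscle, was higher in every KPC IL6KO library at a log2 fold change of 0.33 (unadjusted p = 0.105, quasi-likelihood test).

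Further large falls lay outside the lists. Nnat, a small membrane protein of nerve and fat cells, was at 27.7, 134 and 19.98 CPM without a tumor and at 3.05, 2.28, 7.39 and 1.35 CPM with one, and its log2 fold change of -4.10 ± 0.91 (SE) was the largest fall among genes without overlap whose log2 CPM averaged 1 or more. DESeq2 did not call it (FDR 0.109). Rbp4, the retinol carrier, fell by 2.59, Nrg4, a secreted growth factor of fat cells, by 2.76 and Tusc5, a fat cell membrane protein, by 2.98. All of these were highest in no tumor 2. Prkar2b, Adora1 and Klhdc7a had log2 fold changes of -2.87, -2.87 and -3.41 and were not called. H2-Q10, a class I histocompatibility gene with close paralogs whose reads could be split between copies, fell by 3.31, and Tmem45b fell by 3.78 and Aldh1a7 by 2.80.

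**Figure D4:**
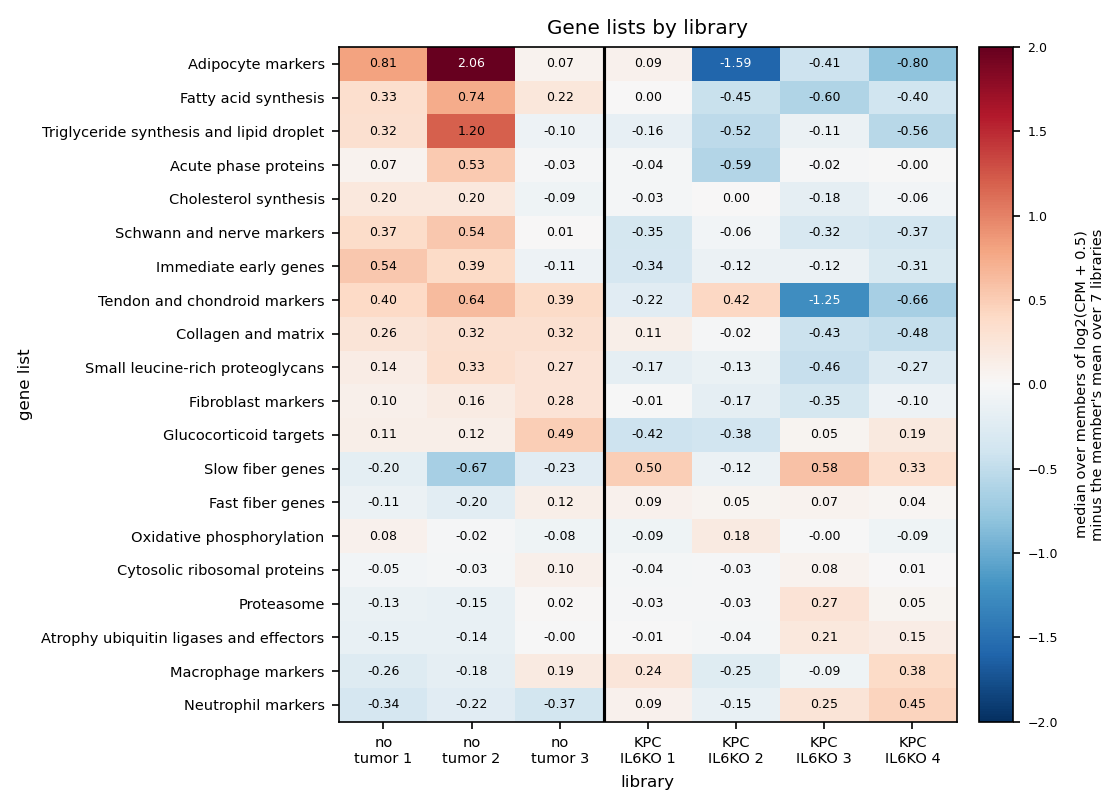
Each cell gives, for 1 gene list (row) in 1 library (column), the median over the measured members of log2(CPM + 0.5) minus the member's mean over the 7 libraries, with red above and blue below that mean. Adipocyte markers reach 2.06 in no tumor 2 and -1.59 in KPC IL6KO 2, while ribosomal protein and oxidative phosphorylation genes lie at most 0.18 from 0.

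Early response genes were mostly lower. Of 24 measured, 3 fell, 0 rose, 21 were lower and the median was -0.67. It was -0.67 without no tumor 2 as well, and -0.38 without no tumor 1. Of the 3 calls only that of Nr4a3 held without no tumor 2, while Nr4a2 and Klf4 had likelihood ratio FDR of 0.389 and 0.399. Nr4a3, an orphan nuclear receptor that exercise induces in muscle, was at 22.3, 20.9 and 6.66 CPM without a tumor and at 1.28, 2.58, 1.46 and 3.64 CPM with one. All 4 tumor libraries lay below no tumor 3, the lowest of its group. Its log2 fold change was -2.90 ± 0.45 (SE), with a likelihood ratio FDR of 1.68e-06. Its relative Nr4a2 fell by 3.01, with overlap, since no tumor 3 at 1.23 CPM lay within the range of the tumor group.

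Klf4, a zinc-finger factor, fell by 0.72, from 38.5, 33.0 and 23.3 CPM to 17.2, 20.6, 21.3 and 17.8 CPM. The stress factor Atf3 had a log2 fold change of -1.79 and was not called. Fos, of the AP-1 complex, was at 14.2, 23.2 and 3.53 CPM against 4.37, 8.85, 5.32 and 2.83 CPM. Its groups overlapped at no tumor 3, as they did for Atf3. Ier3, another early response gene, was higher in every tumor library, at a log2 fold change of 0.76 (unadjusted p = 0.00978, quasi-likelihood test).

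Stress hormone targets held no call. Of 16 glucocorticoid targets 0 were called, 12 were lower and 4 higher. The median was -0.34, or -0.57 without KPC IL6KO 4 and -0.23 without no tumor 3. At an unadjusted p under 0.05 (quasi-likelihood test) 4 were lower and 2 higher, against 4.72% and 2.19% of all genes. Ddit4, an inhibitor of mTORC1, was at 63.6, 64.1 and 179 CPM in the no tumor libraries and at 6.204, 13.7, 39.6 and 51.3 CPM in the KPC IL6KO libraries. The groups did not overlap, and a log2 fold change of -1.88 ± 0.58 (SE) did not pass (likelihood ratio FDR 0.0943). In KPC muscle, set against the same no tumor libraries, Ddit4 had a log2 fold change of 2.70. The clock gene Per1, which glucocorticoids also induce, had -0.97 in KPC IL6KO.

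Collagen and matrix genes were mostly lower. Among 27 collagen and matrix genes 0 were called, but 24 were lower. Without overlap 12 were lower, against 8.01% of all genes in that direction. The list median was -0.51, and it was -0.51 without no tumor 2 too. Col1a2, a chain of type I collagen, was at 291, 322 and 325 CPM against 212, 241, 115 and 136 CPM. Sparc, a collagen-binding protein, was at 359, 448 and 379 CPM against 328, 316, 257 and 213 CPM. KPC IL6KO 3 and 4 were the low libraries of both genes, whose log2 fold changes were -0.83 and -0.51. All 11 small leucine-rich proteoglycans in the table were lower (median -0.42), none of them called.

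Tendon markers gave a median of -0.80 over 14 genes, which was -1.41 without KPC IL6KO 2 and -0.55 without KPC IL6KO 3, and their summed level was 251 to 312 CPM without a tumor and 85.7 to 295 CPM with one. Fibroblast markers gave -0.29 over 17 genes, and Pdgfra, their defining receptor, had -0.26. Scx, the defining factor of tendon cells, had 0.02. The part of tendon and fibroblast content in the collagen values was not tested. Outside these lists, the matrix genes Col27a1 and Olfml2b fell by 1.03 and 0.91, and Abi3bp fell by 0.73. The following genes belong to no list and were named by their calls. S100a10 and Anxa2, which join in 1 complex at the plasma membrane, both fell. S100a10 was at 20.7, 25.3 and 24.4 CPM against 15.2, 14.3, 12.4 and 13.6 CPM, a log2 fold change of -0.76 ± 0.12 (SE). Anxa2 fell by 0.69, Anxa5, another calcium-dependent membrane binder, by 0.67, Tpm4, a cytoskeletal tropomyosin, by 0.62 and Rhob, an endosomal small GTPase, by 0.93.

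Nerve genes were also lower. Of 13 Schwann and nerve markers 11 were lower and 1 fell, with a median of -0.79, or -0.57 without no tumor 2. Pmp22, a protein of peripheral myelin, fell by 0.86, from 35.4, 50.4 and 30.6 CPM to 21.3, 25.4, 18.5 and 20.3 CPM. The list's summed level was 111 to 198 CPM without a tumor and 74.8 to 99.0 CPM with one, and how much nerve each sample held was not tested.

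Other genes named by their small p were Coq10b, a chaperone of coenzyme Q, which fell by 0.98, and Adra1d, an adrenergic receptor, which fell by 1.28. Ctdspl, a nuclear phosphatase, fell by 1.07. Coq10b was 1 of the 5 genes called down without no tumor 2, with Acly, Elovl6, Nr4a3 and Nucb2. Nucb2, a calcium-binding protein, was not called with all libraries.

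Among the rises, Grrp1 had the smallest p of all genes. This gene (chr4:134251102-134266196), named for a glycine and arginine rich protein, was at 1.68, 1.70 and 2.31 CPM without a tumor and at 6.36, 5.47, 9.77 and 6.52 CPM with one. Every tumor library was above 5 CPM and no control above 3. Its means were 1.90 ± 0.354 CPM (SD, n = 3) and 7.03 ± 1.88 CPM (SD, n = 4), a 3.76-fold rise, with a log2 fold change of 1.91 ± 0.25 (SE) and a likelihood ratio FDR of 4.97e-08. In KPC muscle it had a log2 fold change of 1.55, against the same controls.

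Some cytokine receptor genes rose. Csf2rb2, the mouse copy of the common beta chain used by interleukin-3, was at 2.32, 2.57 and 2.72 CPM against 7.98, 4.72, 13.1 and 8.40 CPM and rose by 1.76 on the log2 scale. Its near-identical neighbor Csf2rb, the common beta chain of the GM-CSF, interleukin-3 and interleukin-5 receptors, rose by 1.18. Reads of these 2 copies could be split between them, so their separate values are uncertain. Osmr, the oncostatin M receptor that pairs with gp130, was at 7.05, 7.19 and 6.81 CPM against 11.9, 9.40, 16.1 and 14.4 CPM. No values overlapped and it rose by 0.88 (likelihood ratio FDR 0.00261). Il4ra, the interleukin-4 receptor, rose by 0.77. DESeq2 alone called Bcl3, a partner of NF-kappa-B, at a log2 fold change of 0.94 (DESeq2 FDR 0.033).

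The rest of the interleukin-6 path held no other call by the likelihood ratio test. Of 20 measured genes of this list, 1 rose and the median was 0.06, or -0.04 without KPC IL6KO 1. Il6 itself was not analysed here. Il6ra, the ligand-binding receptor, was at 4.19, 5.37 and 5.23 CPM without a tumor and at 3.92, 3.03, 7.10 and 5.99 CPM with one, so the groups overlapped fully. Its log2 fold change was 0.03 ± 0.31 (SE), where KPC muscle had 5.21 against the same no tumor libraries, and the 2 tumor groups differed (FDR 6.72e-07, edgeR quasi-likelihood test with Benjamini-Hochberg adjustment). Il6st, which encodes gp130, differed by 0.25 ± 0.18 (SE) and Stat3 by -0.04 ± 0.19 (SE).

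Socs3, the feedback inhibitor that STAT3 induces, was at 5.37, 3.10 and 3.28 CPM against 12.8, 4.09, 4.63 and 4.44 CPM. Its log2 fold change of 0.71 ± 0.46 (SE) rested on KPC IL6KO 1 and was 0.15 without it. KPC IL6KO 1 was also the highest of the 7 libraries in 3 related feedback genes. Socs2 was at 27.4 CPM there and at 5.57 to 9.79 CPM in the other tumor libraries, Socs1 at 5.22 CPM against at most 0.617 CPM, and Cish at 132 CPM against at most 16.3 CPM. None of the 3 was called.

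Of the atrophy genes, Fbxo32 rose. It encodes atrogin-1, the muscle ubiquitin ligase, and stood at 177, 146 and 226 CPM without a tumor and at 332, 383, 1081 and 676 CPM with one. The lowest tumor library exceeded the highest control, and KPC IL6KO 3 was well above the others. The log2 fold change was 1.76 ± 0.37 (SE), a 3.38-fold rise with a likelihood ratio FDR of 0.00253, and it was 1.34 without KPC IL6KO 3. The KPC group had 5.02 against the same controls, and the difference between the tumor groups passed (FDR 1.27e-05, edgeR quasi-likelihood test).

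Trim63, which encodes the ligase MuRF1, was at 217, 210 and 349 CPM against 282, 293, 637 and 401 CPM. The groups overlapped at no tumor 3, and a log2 fold change of 0.64 ± 0.30 (SE) did not pass. Of the 17 atrophy genes 1 rose, 15 were higher and the median was 0.20.

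The downstream machinery showed no call. All 26 proteasome subunits were higher, but by a median log2 fold change of 0.15, and 3 of 26 had no overlap, against 7.54% of all genes in that direction. KPC IL6KO 3 had the highest list score, and the median was 0.09 without it. Psmd2, the most abundant member, was at 266, 266 and 317 CPM against 328, 314, 461 and 387 CPM. Autophagy genes had a median of 0.06 over 24 members. Map1lc3b, whose protein LC3B coats autophagosomes, differed by 0.22 ± 0.18 (SE) and Becn1, the initiator beclin 1, by 0.05 ± 0.11 (SE). The cargo receptor Sqstm1 had 0.48 without a call, and Atf4, the stress factor, had 0.29 ± 0.17 (SE). Of 19 measured genes of the ATF4 stress response, however, 13 were lower and 6 higher. Their median was -0.20, or -0.13 without no tumor 2, and the likelihood ratio test called 0. At an unadjusted p under 0.05 (quasi-likelihood test) 7 were lower and 2 higher, against 4.72% and 2.19% of all genes.

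**Figure D5:**
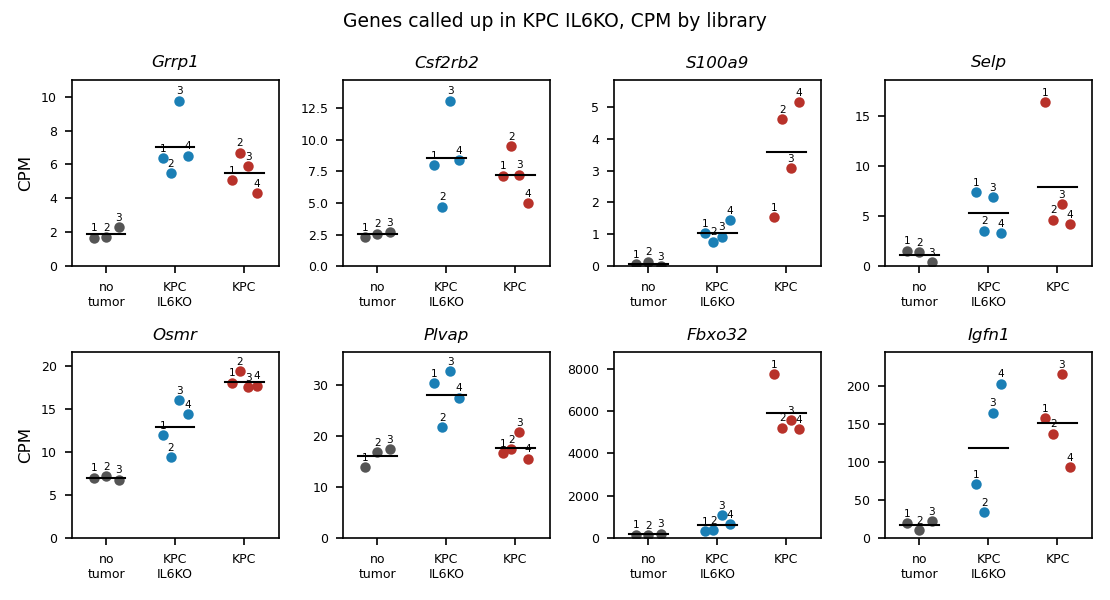
CPM (linear axis from 0) of 8 genes that rose, in no tumor (grey, n = 3), KPC IL6KO (blue, n = 4) and KPC (red, n = 4) muscle, with the library number above each point and the group mean as a bar. Every blue point is above every grey point. The red points are far above the blue for Fbxo32, and for Plvap every red point is below every blue point.

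Igfn1, which binds in the Z-disc, had the largest rise among genes without overlap whose log2 CPM averaged 1 or more. Its values were 20.3, 11.0 and 22.5 CPM without a tumor and 70.5, 34.4, 165 and 203 CPM with one. The tumor libraries spread widely but none reached down to the controls, and Igfn1 rose by 2.72 ± 0.56 on the log2 scale (SE, likelihood ratio FDR 0.00129). H19, a long noncoding RNA, was at 353, 268 and 306 CPM against 686, 442, 862 and 537 CPM and rose by 1.03. Nmrk2, the muscle nicotinamide riboside kinase, was at 120, 84.1 and 118 CPM against 332, 203, 140 and 392 CPM, and DESeq2 alone called it at 1.31 (DESeq2 FDR 0.027). KPC muscle had -5.66 for Nmrk2 against the same controls, and the tumor groups differed (FDR 6.72e-07, edgeR quasi-likelihood test).

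Of 16 neutrophil markers 7 were in the table, 6 of them higher with a tumor and 1 lower, and 2 rose. Most lay near the floor of detection. S100a9, a calprotectin subunit of granulocytes, was at 0.0519, 0.137 and 0 CPM without a tumor and at 1.04, 0.771, 0.928 and 1.44 CPM with one. The groups did not overlap, and a log2 fold change of 3.74 ± 0.63 (SE) passed with a likelihood ratio FDR of 1.68e-06, though at such counts its size depends on the fit. Csf3r, the G-CSF receptor, rose by 1.80, from 0.571, 0.294 and 0.307 CPM to 1.93, 0.999, 1.12 and 1.59 CPM. S100a8, the partner of S100a9, had 2.33 without a call. Mmp9, a matrix protease that other cells also make, was well above the floor at 2.20, 2.45 and 4.15 CPM against 4.14, 2.56, 1.97 and 3.91 CPM and was level at 0.12. Wfdc21 was the lower one, at 0.294, 0.392 and 0.871 CPM against 0.158, 0.0877, 0.142 and 0.0857 CPM. Its groups did not overlap and it was not called (unadjusted p = 0.0228, quasi-likelihood test).

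Macrophage markers gave a median of 0.23 over 20 genes with 0 called, and the median was 0.08 without KPC IL6KO 4. The antigen Adgre1 had 0.21 ± 0.41 (SE). Ccr2, the chemokine receptor of monocytes, was at 0.97, 1.06 and 1.54 CPM against 3.13, 1.91, 2.22 and 3.17 CPM, without overlap, and its log2 fold change of 1.16 ± 0.34 (SE) was not called (likelihood ratio FDR 0.0943). Interferon-stimulated genes gave 0.15 over 36 genes with 0 called, and this direction turned to -0.11 without KPC IL6KO 4. Of 5 measured erythroid markers 4 were higher, 3 of them without overlap, against 7.54% of all genes in that direction. Their median was 0.72, or 0.42 without no tumor 3. Alas2, the erythroid heme enzyme, was at 2.23, 2.55 and 1.95 CPM against 5.73, 3.75, 6.29 and 6.43 CPM. DESeq2 alone called it, at a log2 fold change of 1.30 (DESeq2 FDR 0.0471). Slc4a1, the red cell anion exchanger, was higher in every KPC IL6KO library, at a log2 fold change of 2.16 ± 0.54 (SE) that was not called (likelihood ratio FDR 0.0858), and was at no more than 0.236 CPM in any of the 7 libraries. How much blood each sample held was not tested.

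Some vessel genes were higher. Selp, P-selectin of activated endothelium and platelets, was at 1.54, 1.39 and 0.359 CPM against 7.41, 3.52, 6.89 and 3.31 CPM and rose by 2.17. Plvap, the diaphragm protein of fenestrated vessels, was at 13.9, 16.9 and 17.5 CPM against 30.4, 21.8, 32.9 and 27.6 CPM. It rose by 0.81 ± 0.16 (SE), and KPC muscle, at 0.14 against the same controls, differed from KPC IL6KO (FDR 0.0013, edgeR quasi-likelihood test). Aplnr, the apelin receptor, was at 4.74, 6.31 and 4.66 CPM against 16.5, 15.4, 14.8 and 6.31 CPM, the last of these being KPC IL6KO 4, and DESeq2 alone called it at 1.33. The endothelial markers as a list had a median of 0.17 over 20 genes, or 0.07 without no tumor 3. The general markers Pecam1 and Cdh5 differed by 0.23 and 0.16.

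Further genes rose, with these log2 fold changes: Plscr2 (1.78), 1700001O22Rik (1.55), Cmah (1.32), a sialic acid hydroxylase, Lonrf1 (1.28), Tmem173 (0.97), which encodes the DNA sensing adaptor STING, and Galnt15 (0.69). Plscr2 and Tmem173 were, with Grrp1, Csf2rb2 and S100a9, the 5 genes called up without no tumor 2. Tpx2, a spindle protein, rose by 0.80, while 17 cell cycle genes as a list had a median of -0.06 and no other call.

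The contractile and energy genes that make up most muscle RNA were close to level. Oxidative phosphorylation genes gave a median of 0.01 over 20 members, fatty acid oxidation enzymes 0.12 over 22, glycolysis and glycogen genes 0.08 over 20 and cytosolic ribosomal proteins 0.00 over 35, with 0 called in each. The medians of oxidative phosphorylation and ribosomal protein genes changed sign with 1 library left out. Ppargc1a, the mitochondrial coactivator PGC-1 alpha, differed by -0.09 ± 0.41 (SE) and Ucp3, the mitochondrial carrier of muscle, by 0.06 ± 0.32 (SE). Fast fiber genes had a median of 0.13 over 17 members, and Myh4 differed by -0.05 ± 0.14 (SE).

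Slow fiber genes had a median of 0.68 over 16 members, none of them at an unadjusted p under 0.05. Myh7 was at 64.2, 2.02 and 96.9 CPM without a tumor and at 251, 71.4, 232 and 211 CPM with one. No tumor 2 was the lowest and KPC IL6KO 2 lay between the other controls. Tnni1, the slow troponin I, was at 12.9, 1.61 and 14.5 CPM against 42.8, 13.3, 40.2 and 32.7 CPM, with the libraries of each group in the same order as for Myh7. The median without no tumor 2 was 0.56. Which region of the quadriceps each piece came from was not tested.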

How the data were processed

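RNA of snap-frozen quadriceps was sequenced in 11 libraries, 7 of them compared here. Per the labels, all quadriceps RNA was isolated and sequenced at one time. The authors aligned reads to mm10 with STAR and counted them per gene with featureCounts 1.5.1, and the deposited values are raw counts without normalization. Whether counting used strand is not given in the sources used here. The authors left a further no tumor muscle sample out as an outlier, which was not analysed here, and the adipose table was not used. Some items of the study are not reported here.

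Counts were normalized by TMM and fitted for the 3 muscle groups together (edgeR 4.0.16, quasi-likelihood test), with the likelihood ratio test and DESeq2 1.42.0 as alternatives, Benjamini-Hochberg adjustment over 12831 genes, FDR at most 0.05 and fold change at least 1.5. DESeq2 gave no adjusted p for 541 genes. Fold changes, SE and unadjusted p come from the quasi-likelihood fit. CPM used TMM-scaled library sizes. The common biological coefficient of variation was 22.7%. Separate mice were the replicates. Replicate numbers did not pair the samples (correlations of deviations 0.102, -0.0853 and 0.0308). Alternatives were RLE and upper quartile scaling, 10 counts in every library, only the 2 groups, a replicate block and each library left out. Scripts were tested on simulated data.

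Genes were named by rule: the 12 largest rises and falls among genes of mean log2 CPM at least 1, unadjusted p at most 0.01 and no overlap; the 10 smallest p; for each list its most abundant member, those called and those at p at most 0.01; markers; a fixed set of IL-6, atrophy and lipid genes; and up to 30 genes called by both alternatives. Further members (Mlxipl, Me1, Gpam, Lpin1, Fos, Per1, Socs1, Socs2, Cish, Tnni1 and Wfdc21) and Nucb2 were chosen after their values were seen. Members and lists were chosen with earlier results of these data known. Positions and promoters are RefSeq GRCm38.p6; 12269 genes matched by symbol and 534 by synonym. Figures used matplotlib 3.10.9 under Python 3.11.15.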

Additional observations from a re-analysis of the deposited data

Results flagged for a closer look

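In the KPC IL6KO group of 4, 1 library lay far from the other 3 in 7 of 60 genes examined by Dixon's test. Chance flags about 1 in 20 independent groups. The 60 genes share the same libraries and some move together, so their count cannot be weighed against that rate. KPC IL6KO 1 was high in 6 of them. Acly was at 27.7 CPM there and at 16.7 to 17.7 CPM in the others. Elovl6 was at 2.15 CPM against 0.535 to 0.631 CPM, Pnpla3 at 7.13 CPM against 3.84 to 4.15 CPM and Scd1 at 91.7 CPM against 33.5 to 36 CPM. Aldh1a7, an aldehyde dehydrogenase, was at 1.56 CPM against 0.309 to 0.438 CPM, and Socs3 at 12.8 CPM against 4.09 to 4.63 CPM. In the remaining gene, Aplnr, KPC IL6KO 4 was low at 6.31 CPM against 14.8 to 16.5 CPM. For the 4 lipogenic genes the library that stood out lay nearest to the no tumor group.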

How the results depend on the processing

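With the quasi-likelihood test, 0 genes were called under every alternative run except without KPC IL6KO 1, which called 0 up and 2 down. The range over libraries left out was thus 0 to 0 up and 0 to 2 down. The likelihood ratio test called 25 up and 70 down and DESeq2 30 and 66. With only the 2 groups in the fit these became 85 and 348 by the likelihood ratio test and 82 and 313 by DESeq2. Leaving out 1 library gave 5 to 24 up and 5 to 137 down by the likelihood ratio test, and 12 to 30 up and 8 to 106 down by DESeq2 (chosen, like its fit of 2 groups, after seeing the data). Calls down were lowest without no tumor 2 in both. With the replicate block the likelihood ratio test called 24 up and 57 down, 18 and 40 of them shared with the fit without the block, and the quasi-likelihood test 0. The replicate numbers share only a label. Directions reversed for genes whose change was near 0. With the replicate block Il6ra became -0.0953 and Ppargc1a 0.0479. With 1 library left out, values on the log2 scale spanned -0.187 to 0.209 for Il6ra, -0.136 to 0.0416 for Stat3 and -0.127 to 0.239 for Ucp3, and the low end of each was the fit lacking KPC IL6KO 3. The cause of these shifts was not tested. Groups of 3 and 4 limit what could be called, and genes near the floor of 3 counts are least certain.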
